A study of Mus musculus with 12 samples.

Results

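Contacts between the nuclear lamina and the genes that encode lamins and their membrane partners were read from lamina-associated domain (LAD) maps of mouse embryos. The 10 genes Lmnb1, Lmnb2, Lmna, Lbr, Tmpo, Lemd3, Sun1, Sun2, Syne1 and Syne2 were taken by name, and all 10 were found at GRCm38 positions among the 20144 protein-coding genes that lie within the mapped span of chromosomes 1 to 19. The maps come from DamID, in which the bacterial adenine methyltransferase Dam, fused to lamin B1, marks DNA near the lamina. All groups were embryos of the cross (C57BL/6J xCBA) x DBA/2J, and in all of them both blastomeres had been injected at 46 to 48 h after hCG with AID-Dam-LaminB1 at 20 ng/µL, together with Tir1 at 250 ng/µL, through which auxin (500 µM) keeps the fusion degraded, and membrane-eGFP at 100 ng/µL. The siControl groups had received a control siRNA at the zygote stage and the siRif1 groups one that targets Rif1, whose protein regulates when DNA replicates, each at 20 µM and at 17 to 18 h. Auxin was removed at 54 h after hCG for the 4-cell groups, collected at 60 to 62 h, and at 66 h for the 8-cell groups, collected at 72 to 74 h. Each of the 4 groups (both siRNAs at both stages) had 3 replicates of 16 to 24 pooled blastomeres, and the authors deposited 1 LAD list per group made from its replicates together. The lists therefore hold no replicate error and no read depth, no test between groups could be run, and a difference below is a difference between pooled lists. They hold no RNA, so neither the depletion of Rif1 nor the expression of the genes described here was measured.

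The nuclear lamina is a meshwork of B-type lamins (lamin B1 from Lmnb1, lamin B2 from Lmnb2) and A-type lamins (lamins A and C from Lmna) beneath the inner nuclear membrane. Membrane proteins anchor it and bind chromatin, among them the lamin B receptor (Lbr), the lamina-associated polypeptide 2 family (Tmpo) and MAN1 (Lemd3). SUN proteins of the inner membrane (Sun1, Sun2) join nesprins of the outer membrane (Syne1, Syne2) to form the LINC complex, which links the lamina to the cytoskeleton. LADs are long domains that touch this layer, and they are in general poor in genes and in transcription.

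Of the 10 genes, 5 were outside LADs in every list (Lmnb2, Lmna, Lbr, Lemd3 and Syne2), and Syne1 alone was inside a LAD in all 4. The state of the other 4 differed between lists. Lmnb1 and Sun2 were in a LAD in siControl 4-cell embryos alone, Sun1 in siControl 8-cell embryos alone, and Tmpo in every group except siControl 8-cell. State was read at the gene midpoint, and the whole body of each gene had the state of its midpoint in every list, since either 100% or 0% of its length lay in LADs. Among all protein-coding genes, 57.4% were outside LADs in all lists, 9.66% inside in all, 4.97% inside in siControl 4-cell alone, 3.76% inside in siControl 8-cell alone and 1.55% inside in all but siControl 8-cell. The state was not the same in all 4 lists for 4 of the 10 genes and for 32.9% of all protein-coding genes. By these calls a varying state was about as frequent among the 10 genes as in the genome. The count of 4 depends on borders. Sun1 and Sun2 were outside in every list with LADs shortened by 100 kb at both ends. Lmnb1 was inside in every list with LADs lengthened by 100 kb at both ends. Shares of all genes, here and below, are for the LADs as deposited.

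The promoter sequences of Sun2, Tmpo and Sun1, whose state varied, and of Syne1, whose state did not, are shown because Dam methylates the adenine of the sequence GATC, so that GATC sites set where DamID can read. They are RefSeq sequences of GRCm38.p6, 250 bases before to 50 after the most upstream start in the table, 5′ to 3′ on the gene's strand, with each GATC in capitals. The Sun2 window is chr15:79742487-79742786, minus strand. The Tmpo window is chr10:91171570-91171869, minus strand. The Sun1 window is chr5:139200387-139200686, plus strand. The Syne1 window is chr10:5550643-5550942, minus strand.
Sun2: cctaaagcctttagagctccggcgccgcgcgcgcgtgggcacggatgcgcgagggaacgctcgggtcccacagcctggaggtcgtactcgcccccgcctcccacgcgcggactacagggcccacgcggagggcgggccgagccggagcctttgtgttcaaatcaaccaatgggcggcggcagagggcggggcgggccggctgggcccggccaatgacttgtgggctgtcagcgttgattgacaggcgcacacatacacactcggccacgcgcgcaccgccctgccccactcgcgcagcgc
Tmpo: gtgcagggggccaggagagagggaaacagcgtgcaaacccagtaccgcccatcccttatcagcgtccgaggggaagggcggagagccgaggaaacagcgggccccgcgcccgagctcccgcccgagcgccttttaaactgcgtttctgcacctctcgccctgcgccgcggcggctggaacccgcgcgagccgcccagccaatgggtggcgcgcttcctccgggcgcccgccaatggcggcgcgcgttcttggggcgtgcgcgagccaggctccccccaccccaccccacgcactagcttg
Sun1: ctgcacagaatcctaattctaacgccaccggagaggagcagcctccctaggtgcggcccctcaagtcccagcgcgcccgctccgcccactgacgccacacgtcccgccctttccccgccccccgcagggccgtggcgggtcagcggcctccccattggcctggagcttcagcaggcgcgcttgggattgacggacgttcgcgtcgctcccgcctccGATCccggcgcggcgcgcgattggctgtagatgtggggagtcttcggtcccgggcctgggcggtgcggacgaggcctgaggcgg
Syne1: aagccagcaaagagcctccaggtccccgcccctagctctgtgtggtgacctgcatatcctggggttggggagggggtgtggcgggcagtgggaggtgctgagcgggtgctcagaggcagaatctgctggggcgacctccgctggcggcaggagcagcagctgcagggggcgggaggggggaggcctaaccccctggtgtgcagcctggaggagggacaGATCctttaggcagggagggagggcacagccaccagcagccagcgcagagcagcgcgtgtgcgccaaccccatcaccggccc
The Sun1 window holds 1 GATC, from base 217, and the Syne1 window 1, from base 219, while these letters are not in the Sun2 and Tmpo windows. The promoter table held 9 of the 10 genes, and 4 of the 9 windows contained GATC (Lmna, Lbr, Sun1 and Syne1), against 48.0% of the windows of 27025 genes. GATC reads the same on both strands. The 9 windows were 55.3 to 74.3% G and C, beside a median of 52.7% over the 27025 genes. They held 1 to 45 CG dinucleotides (median of the 27025 genes 7), the lowest count being that of Lmna. These 27025 genes are a larger set than the 20144 protein-coding genes used elsewhere. The Lmna window (88503303 to 88503602) and the Tmpo window lie wholly inside the annotated genes, which extend upstream to 88509932 and 91181752. Their base counts therefore describe an internal start and not the 5′ end of the annotated gene. A LAD call spans 100-kb bins, so the letters of one promoter do not give the state of its gene.

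**Figure D1:**
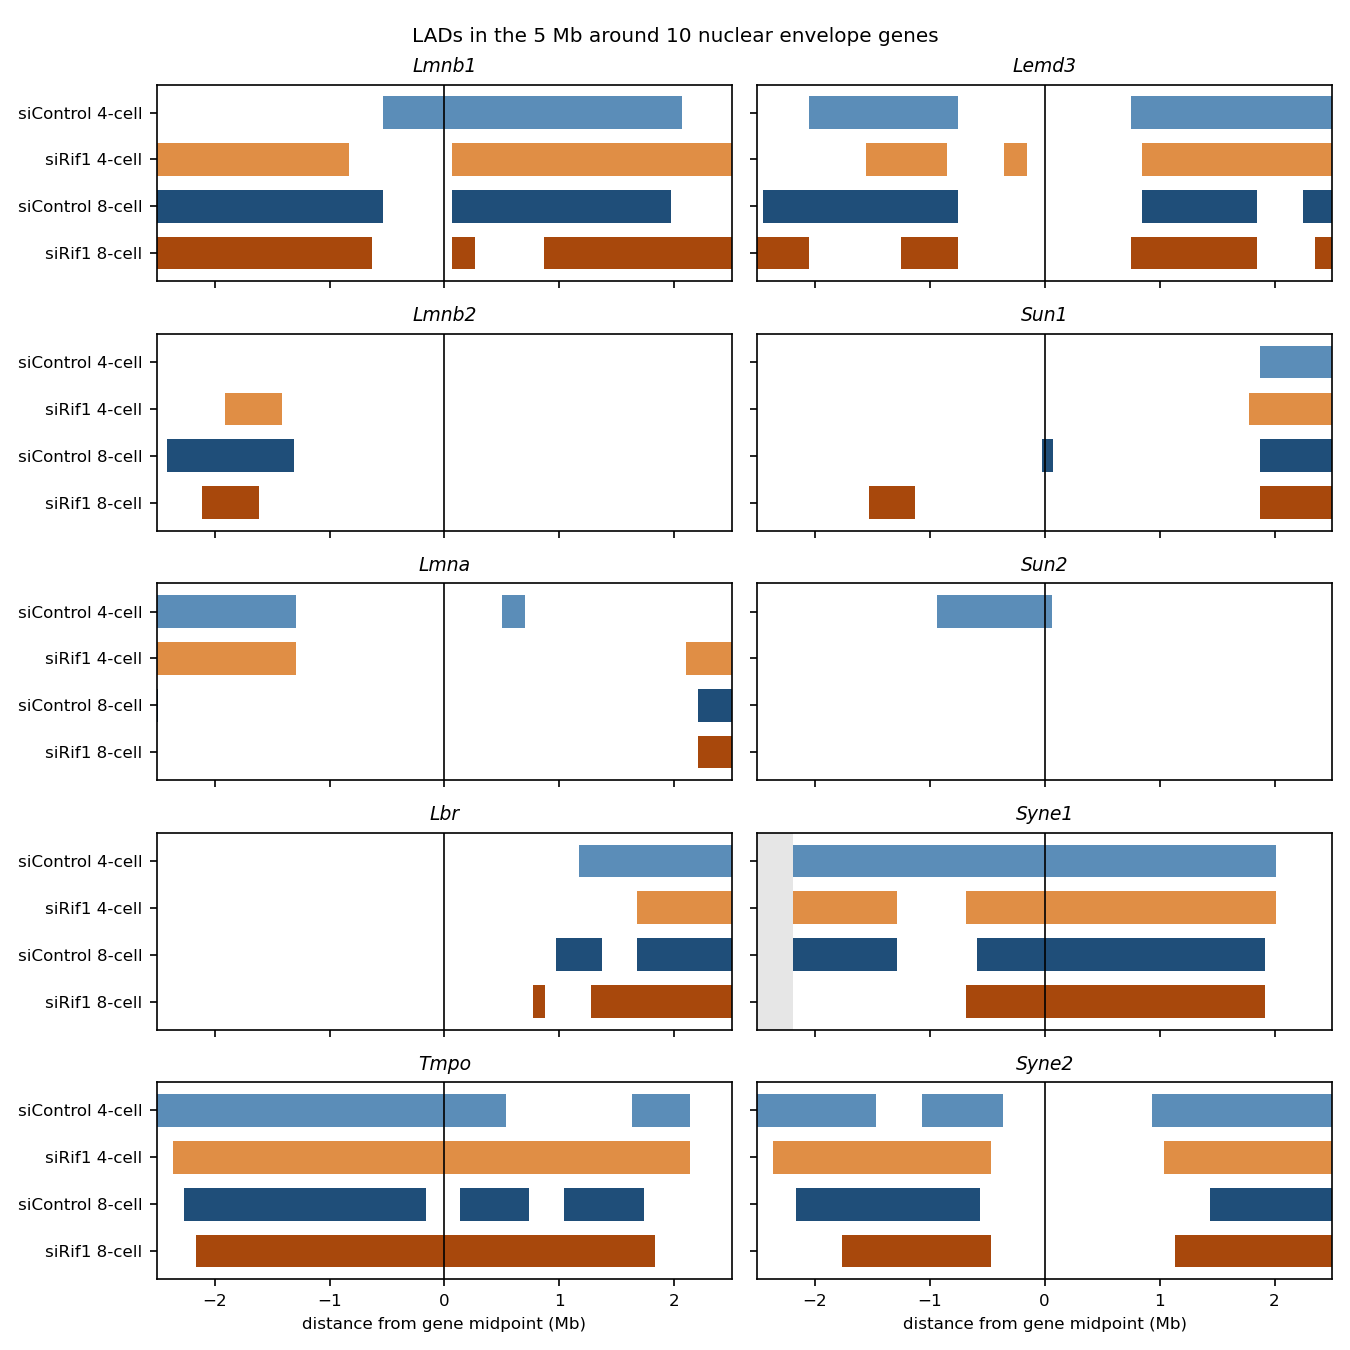
LADs (bars) of the 4 pooled lists in the 5 Mb around each of the 10 genes, drawn by distance from the gene midpoint (vertical line, x axis in Mb). In the Syne1 panel the grey area lies before the first LAD of the chromosome; Syne1 sits in a LAD in all 4 lists, Lmnb1 and Sun2 in siControl 4-cell alone.

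Among the lamin genes, the state of Lmnb1 differed between lists and those of Lmnb2 and Lmna did not. Lmnb1 lies on chromosome 18 (56707813 to 56753424, 45.6 kb). In siControl 4-cell embryos it sat within a LAD of 2.6 Mb (56200001 to 58800000), with its midpoint 531 kb from the nearest border. In the other 3 lists it was outside, in a gap between LADs that was 0.9 Mb long in siRif1 4-cell embryos and 0.6 and 0.7 Mb long in siControl and siRif1 8-cell embryos. That gap ended at the same place in all 3, so the midpoint was 69.4 kb from a LAD that began at 56800001. A border on a 100-kb grid leaves distances below 100 kb without an order, and lengthening every LAD by 100 kb at both ends placed Lmnb1 in LADs in all 4 lists.

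The surroundings of Lmnb1 did not follow its own state. LADs covered 52.0% of its 5 Mb in siControl 4-cell embryos, where the gene was inside, and 82.0% in siRif1 4-cell, 77.4% in siControl 8-cell and 74.0% in siRif1 8-cell embryos, where it was outside. Most of the difference lay on the side of lower coordinates, which was covered to 21.2% in siControl 4-cell and to 66.8, 78.8 and 74.8% in the other lists in that order. No part of this 5 Mb was outside LADs in all lists, and 26.0% was inside in all. Lmnb1 was thus in a long LAD in one list and in a short gap of a denser LAD landscape in the others. The siControl 4-cell list was also sparser over the whole mapped span. Its LADs covered 32.9% of the span, against 43.5, 44.7 and 42.9% in the other lists in that order.

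Lmnb2, which encodes the second B-type lamin, lies on chromosome 10 (80901363 to 80918245) and was far from LADs in every list. At the 4-cell stage its midpoint was 2.89 Mb (siControl) and 1.41 Mb (siRif1) from the nearest border, and at the 8-cell stage 1.31 and 1.61 Mb. The siControl 4-cell list had no LAD in its 5 Mb, and the others had 1 LAD each, on the side of lower coordinates, which took 10.0, 22.0 and 10.0% of the window. The window held 175 protein-coding genes, the most of the 10, against a median of 64.5 over all protein-coding genes.

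Lmna, the gene of lamins A and C, lies on chromosome 3 (88481148 to 88509932). Its distance to the nearest border was 504 kb in siControl 4-cell, 1.30 Mb in siRif1 4-cell and 2.20 Mb in both 8-cell lists. The nearest LAD of the siControl 4-cell list was 0.2 Mb long (89000001 to 89200000) and was in no other list. On the other side, a LAD that ended at 87200000 was in both 4-cell lists and in neither 8-cell list. Coverage of the 5 Mb was 28.1 and 32.0% at the 4-cell stage and 6.00 and 5.91% at the 8-cell stage, each in the order siControl, siRif1. The 8-cell lists thus showed Lmna in a wider gap than the 4-cell lists, with or without the siRNA against Rif1.

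Among the inner membrane genes, Tmpo was at the lamina in 3 lists and Lbr and Lemd3 in none. Tmpo lies on chromosome 10 (91147571 to 91181752), where LADs were dense. It was inside LADs of 4.2 Mb in siControl 4-cell (midpoint 535 kb from the border), 4.5 Mb in siRif1 4-cell (2.14 Mb) and 4 Mb in siRif1 8-cell embryos (1.84 Mb). In siControl 8-cell embryos a gap of 0.3 Mb (91000001 to 91300000) held Tmpo, 135 kb from the nearest border, with LADs on either side. Coverage of its 5 Mb was 70.7% in siControl 4-cell, 90.0% in siRif1 4-cell, 68.0% in siControl 8-cell and 80.0% in siRif1 8-cell embryos, and 50.0% of the window was LAD in all lists. The gap also held Slc25a3, a mitochondrial phosphate carrier gene, Ikbip and Apaf1, the apoptosome gene. Gaps of up to 300 kb made up 5.50% of the 727 gaps of the siControl 8-cell list, 1.89% in siControl 4-cell, 3.36% in siRif1 4-cell and 2.64% in siRif1 8-cell.

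**Figure D2:**
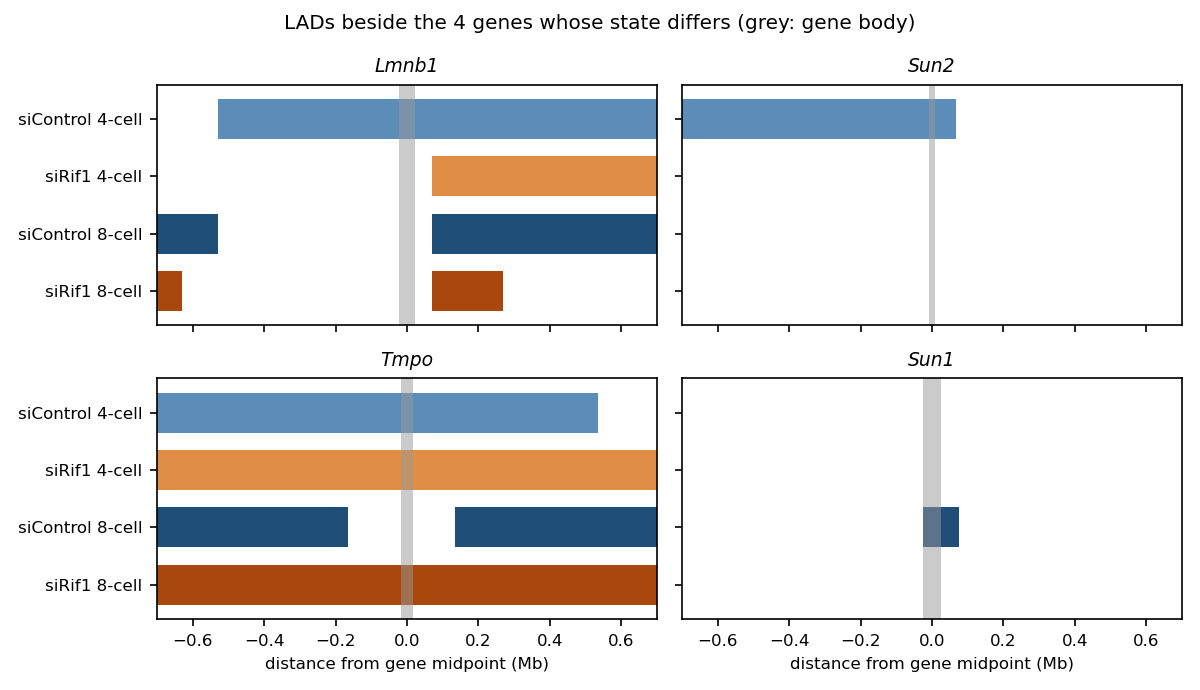
LADs (bars) of the 4 pooled lists within 0.7 Mb of the midpoint of the 4 genes whose state differs; grey marks the gene body and the x axis is in Mb. Lmnb1 lies in a LAD in siControl 4-cell and 69.4 kb from one in the other lists, Tmpo in a gap of 0.3 Mb in siControl 8-cell, and Sun1 in a LAD of 0.1 Mb in the same list.

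Lbr, whose protein binds B-type lamins and heterochromatin, lies on chromosome 1 (181815315 to 181842401). It was outside LADs by 1.17 Mb (siControl) and 1.67 Mb (siRif1) at the 4-cell stage, and by 0.971 and 0.771 Mb at the 8-cell stage. Every LAD of its 5 Mb lay on the side of higher coordinates, with coverage of that side of 53.2, 33.2, 49.2 and 53.2% in the same list order and 0% on the other side. The gap that held Lbr was 3.6 to 4.4 Mb long in the 4 lists.

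Lemd3, the gene of the LEM-domain protein MAN1, lies on chromosome 10 (120923411 to 120979396) in a gap with LADs on both sides. The nearest border was 749 kb away in siControl 4-cell, 751 kb in siControl 8-cell and 749 kb in siRif1 8-cell embryos, but 151 kb in siRif1 4-cell embryos. The short distance in siRif1 4-cell came from a LAD of 0.2 Mb (120600001 to 120800000) that was in no other list. Coverage of the 5 Mb was 61.0 (siControl) and 51.0% (siRif1) at the 4-cell stage and 59.0 and 44.0% at the 8-cell stage. Lemd3 was thus outside LADs in every list although its 5 Mb were covered above the median of all protein-coding genes in each (20.6 to 31.7%).

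Among the LINC complex genes, the state of the SUN genes differed between lists and that of the nesprin genes did not. Sun2 lies on chromosome 15 (79724068 to 79742536). In siControl 4-cell embryos it was 66.7 kb inside a LAD of 1 Mb (78800001 to 79800000). In the other 3 lists it lay 6.73 Mb (siRif1 4-cell), 7.23 Mb (siControl 8-cell) and 7.27 Mb (siRif1 8-cell) from any LAD, in gaps of 16.6, 15.2 and 16.9 Mb. No LAD of those lists reached its 5 Mb, so coverage was 20.0% in siControl 4-cell and 0% in each of the others. That LAD held 36 protein-coding genes, and the nearest of them to Sun2 were Gtpbp1, Dnal4, Josd1, Tomm22 and Nptxr. Shortening every LAD by 100 kb at both ends took Sun2 out of LADs in all lists.

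Sun1 lies on chromosome 5 (139200564 to 139249839). In siControl 8-cell embryos it was 25.2 kb inside a LAD of a single 100-kb bin (139200001 to 139300000), which also held Get4 and Adap1. In the other lists it was 1.87 Mb (siControl 4-cell), 1.77 Mb (siRif1 4-cell) and 1.13 Mb (siRif1 8-cell) outside. LADs of 1 bin numbered 42 of 746 (5.63%) in siControl 8-cell, 37 of 601 (6.16%) in siControl 4-cell, 21 of 644 (3.26%) in siRif1 4-cell and 61 of 738 (8.27%) in siRif1 8-cell. Coverage of the 5 Mb did not follow the state of the gene, at 12.5% in siControl 4-cell, 14.5% in siRif1 4-cell, 14.5% in siControl 8-cell and 20.5% in siRif1 8-cell embryos. The state of Sun1 rests on that bin: with LADs of at least 300 kb alone, or LADs shortened by 100 kb at both ends, Sun1 was outside in every list.

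Syne1, which encodes the giant nesprin-1, is the longest of the 10 genes (531 kb, chromosome 10, 5020192 to 5550692). All of it was in a LAD in every list. That LAD was 4.2 Mb long in siControl 4-cell embryos, with the midpoint 2.01 Mb from the border, and 2.7, 2.5 and 2.6 Mb long in siRif1 4-cell, siControl 8-cell and siRif1 8-cell embryos, with the midpoint 685, 585 and 685 kb from it. Its window was cut to 4.69 Mb by the start of the mapped span, and its coverage was 89.6, 76.8, 72.6 and 55.5%, with siControl 4-cell first. The largest differences lay toward the centromere, where coverage was 100% in siControl 4-cell and 31.4% in siRif1 8-cell embryos, with 72.5 and 68.0% in siRif1 4-cell and siControl 8-cell.

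Syne2, the nesprin-2 gene, spans 293 kb of chromosome 12 (75818318 to 76110928) and lay outside LADs in a gap of 1.3 Mb (siControl) and 1.5 Mb (siRif1) at the 4-cell stage and of 2 and 1.6 Mb at the 8-cell stage. Its midpoint was 365, 465, 565 and 465 kb from the nearest border in the same list order. Coverage of its 5 Mb was 66.0 and 67.3% at the 4-cell stage and 53.3% in both 8-cell lists. Syne2 was thus outside LADs in every list with more than 50% of its surroundings inside, whereas Syne1 was inside in every list.

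**Figure D3:**
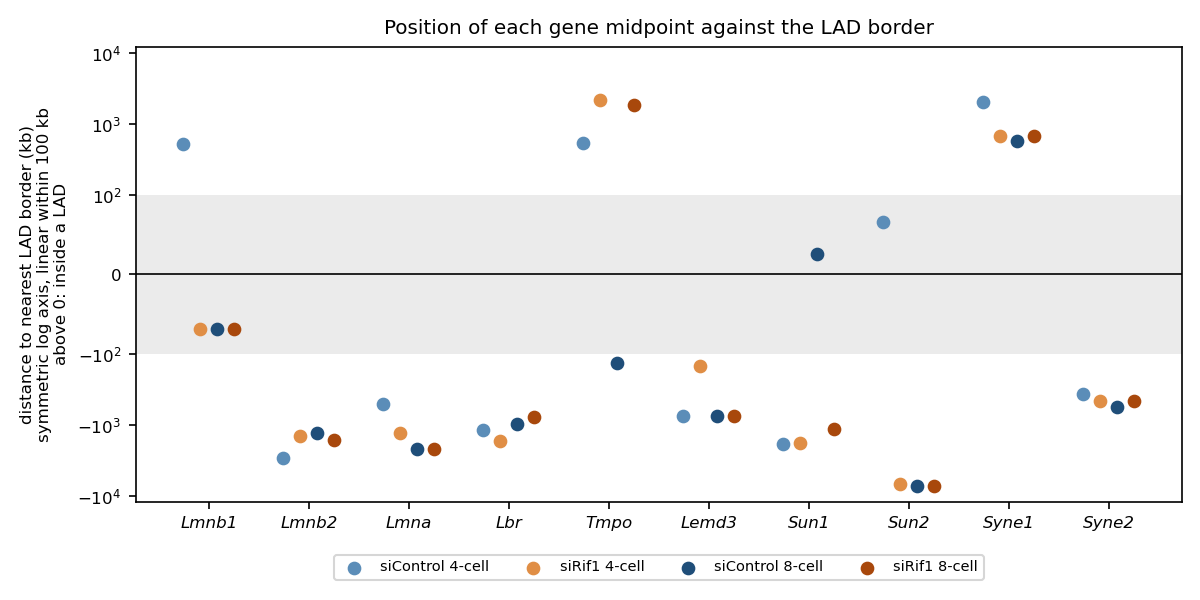
Distance in kb from the midpoint of each of the 10 genes to the nearest LAD border in the 4 pooled lists, above 0 inside a LAD and below 0 outside, on a symmetric log axis that is linear within 100 kb (grey, 1 bin of the grid). Only Lmnb1, Sun1 and Sun2 have points in the grey area, and Sun2 lies 6.73 to 7.27 Mb outside LADs in the lists other than siControl 4-cell.

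Whether loss of Rif1 alters lamina contacts at the 4-cell stage was asked by comparing siRif1 with siControl embryos. In siControl 4-cell LADs lay 4 of the 10 genes (Lmnb1, Tmpo, Sun2 and Syne1) beside 24.7% of all protein-coding genes, and in siRif1 4-cell LADs 2 (Tmpo and Syne1) beside 24.0%. Lmnb1 and Sun2 were LAD in siControl alone (2 of 10, all genes 8.08%), and none of the 10 was LAD in siRif1 alone (all genes 7.37%). The stretch of Lmnb1 that was LAD in siControl alone was 0.6 Mb long (56200001 to 56800000) and held 5 protein-coding genes, among them Phax, an snRNA export factor gene, and Aldh7a1. The stretch of Sun2 was its whole LAD of 1 Mb. With LADs shortened, or lengthened, by 100 kb at both ends, 1 of the 10 was LAD in siControl alone in place of 2.

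The same comparison at the 8-cell stage found 2 of the 10 genes in LADs in each list, but not the same pair. Sun1 and Syne1 were in siControl 8-cell LADs, beside 26.3% of all protein-coding genes, and Tmpo and Syne1 in siRif1 8-cell LADs, beside 24.2%. Tmpo was LAD in siRif1 alone (1 of 10, all genes 7.33%), over the 0.3 Mb of the siControl gap. Sun1 was LAD in siControl alone (1 of 10, all genes 9.37%), over the single bin, and with LADs of at least 300 kb alone or shortened by 100 kb this count was 0.

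Development from the 4-cell to the 8-cell stage was compared within each siRNA. In siControl embryos Lmnb1, Tmpo and Sun2 were LAD at the 4-cell stage alone (3 of 10, all genes 9.59%), and Sun1 at the 8-cell stage alone (1 of 10, all genes 11.2%). With LADs shortened, or lengthened, by 100 kb at both ends the first count was 2. With LADs shortened, or of at least 300 kb alone, the second count was 0. In siRif1 embryos none of the 10 was LAD at the 8-cell stage alone (all genes 8.83%) or at the 4-cell stage alone (all genes 8.58%), so each gene had the same state at both stages. The comparisons share lists. The siControl 4-cell list serves both the siRNA and the stage comparison, so that Lmnb1 and Sun2 appear in both from 1 list. In the same way Tmpo and Sun1 appear in both the 8-cell siRNA comparison and the siControl stage comparison, from the siControl 8-cell list. Whether the number of differing genes depends on the siRNA was not tested.

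Coverage of the surrounding 5 Mb took in all LADs of each neighbourhood, including any LAD that held the gene. It can still rest on 1 LAD. Around Sun2 the only LAD was the one that held it in siControl 4-cell, so its coverage repeats its state. The median coverage over the 10 genes was 40.0% in siControl 4-cell (range 0 to 89.6%), 41.5% in siRif1 4-cell (0 to 90.0%), 38.9% in siControl 8-cell (0 to 77.4%) and 35.3% in siRif1 8-cell embryos (0 to 80.0%). Over all protein-coding genes the medians were 20.6, 28.0, 31.7 and 28.2% in that order. The order of both medians depended on the window. In 2 Mb windows the medians of the 10 genes were 30.0, 12.5, 12.5 and 15.0%, above that of all genes in siControl 4-cell (13.6%) and below it in the other lists (16.8, 22.5 and 19.6%). By their 5 Mb coverage the 10 genes could be split in 2. Lmnb1, Tmpo, Lemd3, Syne1 and Syne2 were at 44.0% or more in every list. Lmnb2, Lmna, Lbr, Sun1 and Sun2 were at 32.0% or less in every list. This split did not hold in 2 Mb windows, since in siControl 4-cell LADs covered more around Sun2 than around Lemd3 or Syne2. Of the 5 with denser 5 Mb coverage, Lemd3 and Syne2 were never in a LAD themselves. Of the 5 with sparser 5 Mb coverage, Sun1 and Sun2 each were once. Windows of the 10 genes held 19 to 175 protein-coding genes (median 42), with 19 around Lmnb1, 24 around Lemd3 and 27 around Tmpo, 134 around Lmna and 118 around Sun2.

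**Figure D4:**
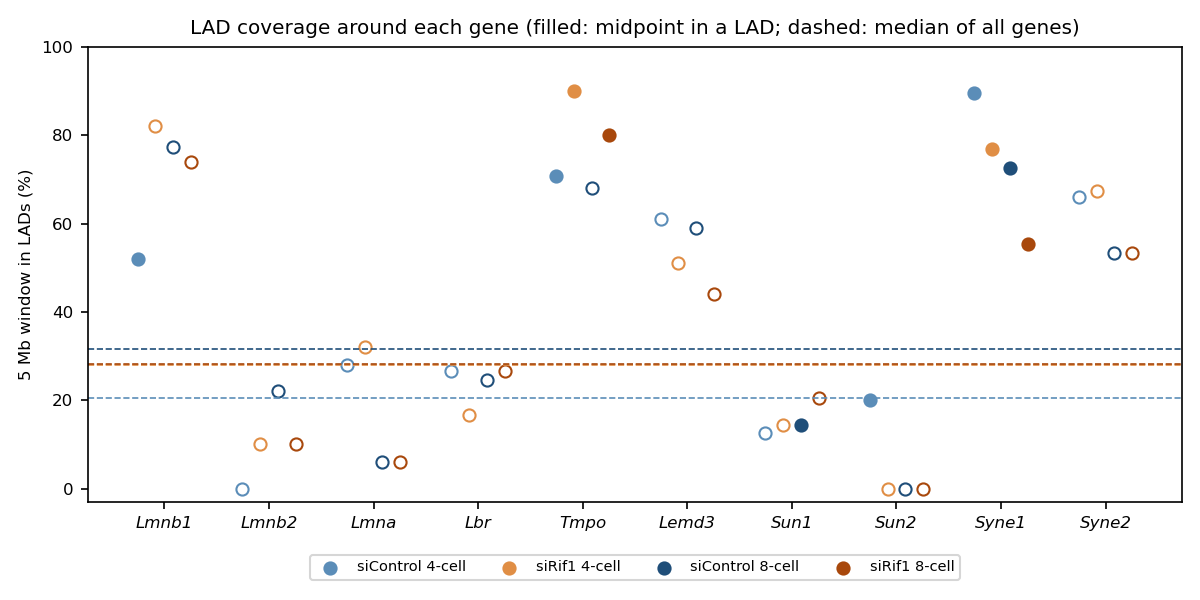
Percent of the 5 Mb around each of the 10 genes that lies in LADs, in the 4 pooled lists; filled points mark lists in which the gene midpoint is in a LAD, and dashed lines the median over all protein-coding genes of each list (20.6 to 31.7%). Lmnb1, Tmpo, Lemd3, Syne1 and Syne2 lie at 44.0% or more in every list.

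At the 4-cell stage 6 of the 10 windows had higher coverage in siRif1 than in siControl embryos, beside 52.0% of all protein-coding genes. The differences, siRif1 minus siControl, ran from -20.0 percentage points (Sun2) to 30.0 points (Lmnb1), with a median of 1.65 over the 10 genes and 2.00 over all genes. At the 8-cell stage 3 windows were higher in siRif1 (Lbr, Tmpo and Sun1; all genes 40.6%), 5 lower and 2 equal, from -17.1 points around Syne1 to 12.0 around Tmpo. From the 4-cell to the 8-cell stage, 3 windows were higher at the 8-cell stage in siControl embryos (Lmnb1, Lmnb2 and Sun1; all genes 59.2%), from -22.1 points around Lmna to 25.4 around Lmnb1. The median was -2.35 points, against 6.00 over all protein-coding genes. In siRif1 embryos 2 were higher (Lbr and Sun1; all genes 46.8%), from -26.1 points around Lmna to 10.0 around Lbr, with a median of -7.51 against 0 over all genes. The 10 windows are 10 loci and not replicates, and no test of these differences was run.

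The nearest named protein-coding gene on each side shared the state of the gene in all 4 lists for 17 of 20 neighbours (85.0%). Over all named protein-coding genes the share was 86.0% of 37496 neighbours. The exceptions were 3 genes. Marchf3, 113 kb above Lmnb1 by midpoint, was in LADs in all 4 lists, while Tex43, 139 kb below it, had the state of Lmnb1. Nedd1, the next named gene above Tmpo at 1540 kb, was LAD in all lists but siControl 4-cell. Dnaaf5, 56.9 kb below Sun1, was outside in every list, whereas Get4, 36.0 kb above it, shared the bin. Syne1 lay between Esr1, the estrogen receptor alpha gene, and Myct1, both in LADs in all lists, and Syne2 next to Esr2, the estrogen receptor beta gene, outside in all. Among the 45 pairs of the 10 genes, 11 had the same state in all 4 lists and 6 in none; the latter are Syne1 with each of Lmnb2, Lmna, Lbr and Lemd3 and Syne2, and Tmpo with Sun1.

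A wider list of nuclear envelope and lamina-associated genes held 65 further genes, of which 61 were analysed; Emd and Suv39h1 lie on the X chromosome and Banf1 and Rce1 on chromosome 19 before its first LAD. In LADs lay 8 of the 61 in siControl 4-cell (13.1%), 4 in siRif1 4-cell (6.56%), 4 in siControl 8-cell (6.56%) and 8 in siRif1 8-cell embryos (13.1%), in each list a smaller share than that of all protein-coding genes. Shortening LADs by 100 kb at both ends gave 5, 4, 3 and 6 genes in the same order, so that the siControl and siRif1 4-cell counts differed by 1 gene. Lengthening LADs by 100 kb at both ends gave 12, 6, 5 and 10, so the size of these differences depended on the borders. In no list were 48 of them (78.7%, all genes 57.4%), 11 varied (18.0%, all genes 32.9%), and 2 were in LADs in all lists (3.28%, all genes 9.66%), Nemp2, an inner membrane protein gene, and the nuclear pore gene Nup37. The median coverage of their 5 Mb was 18.0% (siControl) and 22.2% (siRif1) at the 4-cell stage and 25.1 and 21.6% at the 8-cell stage. In 2 Mb windows it was 5.00, 0, 0.547 and 5.00% in the same list order.

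**Figure D5:**
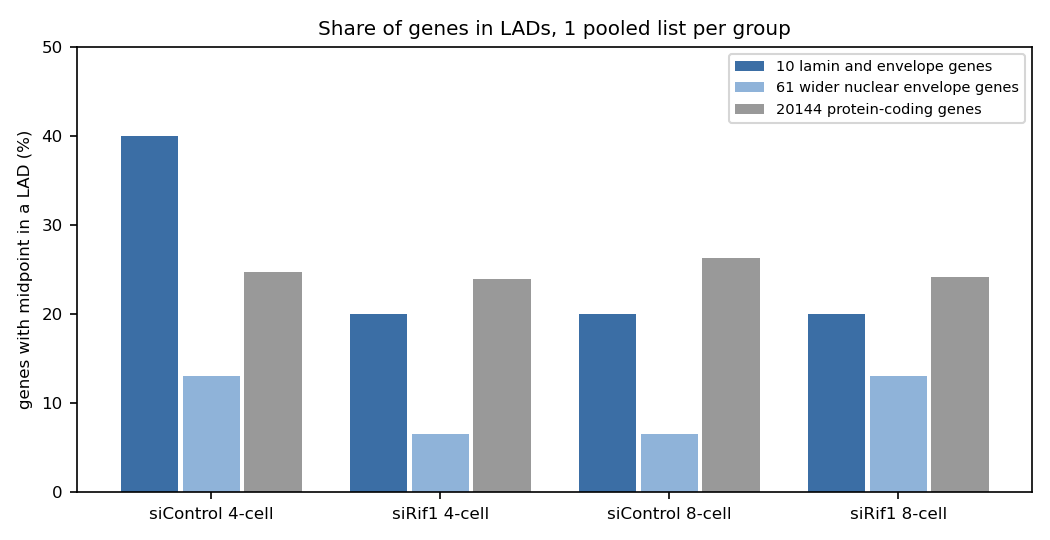
Percent of genes whose midpoint lies in a LAD, for the 10 lamin and envelope genes, the 61 wider nuclear envelope genes and all 20144 protein-coding genes, in each pooled list; bars have no error because each group has 1 list. The 10 genes stand at 40.0% in siControl 4-cell and 20.0% in the other lists, the wider genes at 6.56 to 13.1%. With LADs shortened by 100 kb at both ends, 5 and 4 of the 61 were in siControl and siRif1 4-cell LADs. With LADs lengthened by 100 kb these counts were 12 and 6.

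Of the 5 other LINC genes in the wider list, 4 varied (all genes 32.9%). With LADs shortened by 100 kb at both ends 2 varied, and with LADs lengthened by 100 kb 3 did. The shares of all genes are for the LADs as deposited, so counts with moved borders have no such share beside them. Sun3, a SUN gene known from spermatids, was 667 kb inside a LAD in siControl 4-cell, 67.5 kb outside in siRif1 4-cell, and 32.5 and 168 kb inside in siControl and siRif1 8-cell embryos. Spag4, a SUN-domain gene of the testis, was 167 kb inside in siControl 4-cell and 2.17 to 2.83 Mb outside in the others, the pattern of Sun2 and Lmnb1. Sun5 and the nesprin-3 gene Syne3 were LAD in siRif1 8-cell alone, 36.2 and 70.3 kb inside, and Syne4 was outside in all. The Sun5 and Syne3 calls, and those of Sun3 in siRif1 4-cell and siControl 8-cell, lie within 1 bin of a border. Of these 5 genes 3 were LAD in siRif1 8-cell (all genes 24.2%), 2 in siControl 4-cell (24.7%), 1 in siControl 8-cell (26.3%) and 0 in siRif1 4-cell embryos (24.0%), counts that became 1, 2, 0 and 0 with shortened LADs.

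Of 9 chromatin-tethering genes, 3 were in siControl 4-cell LADs (all genes 24.7%), 0 in siRif1 4-cell (24.0%) and in siControl 8-cell LADs (26.3%) and 1 in siRif1 8-cell LADs (24.2%). The histone methyltransferase genes Ehmt2 and Suv39h2 were LAD in siControl 4-cell alone, 6.30 and 65.4 kb inside, and with LADs shortened by 100 kb at both ends both were outside and the siControl 4-cell count was 1. Cbx5, the gene of heterochromatin protein 1 alpha, was LAD in siControl 4-cell and siRif1 8-cell embryos, 116 and 384 kb inside. Of 11 genes grouped as inner membrane and LEM domain, Tor1a and Tor1b among them, Tmem201 was LAD in siControl 4-cell alone (all genes 4.97%), 73.3 kb inside. With LADs of at least 300 kb alone, or shortened by 100 kb at both ends, the siControl 4-cell count of these 11 fell from 2 to 1. The state of none of the 11 then varied. The 5 lamin-processing genes, among them Zmpste24, the protease that matures lamin A, and the methyltransferase gene Icmt, were outside in all lists by midpoint (all genes 57.4%). The midpoint of Fntb was 20.6 kb from a LAD in siControl 4-cell. By any base of the gene, or with LADs lengthened by 100 kb at both ends, 1 of the 5 was in siControl 4-cell LADs.

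Of the 31 nuclear pore genes, 27 were outside LADs in every list (all genes 57.4%), with Nup54, Nup88 and Nup210 within 1 bin of a LAD in 1 list each (25.4 kb in siRif1 8-cell, 43.5 kb in siControl 8-cell and 65.7 kb in siRif1 4-cell). With LADs lengthened by 100 kb at both ends the count was 24. Tpr, the gene of a nuclear basket protein, was 78.6 kb outside in siControl 4-cell and 879, 879 and 779 kb inside in siRif1 4-cell, siControl 8-cell and siRif1 8-cell embryos. Ranbp2 was LAD in siRif1 4-cell alone (271 kb inside), and Nup35 in siRif1 8-cell alone (451 kb inside). Over the 61 genes, 6 were LAD in siControl and 2 in siRif1 alone at the 4-cell stage (all genes 8.08 and 7.37%), and 0 and 4 at the 8-cell stage (all genes 9.37 and 7.33%). Between stages, 1 was LAD at the 8-cell stage alone and 5 at the 4-cell stage alone in siControl embryos (all genes 11.2 and 9.59%), and 5 and 1 in siRif1 embryos (all genes 8.83 and 8.58%). Each count is 6 or fewer of 61 genes, and the differences from the shares of all genes were not tested.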

How the data were processed

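DamID was done on 12 samples, 3 in each of 4 groups. The authors deposited, per the labels and the design text, 1 list of LAD starts and ends per group made from all replicates. Per the submitters' processing notes, Trimmomatic, Bowtie2, SAMtools and Picard were used (no versions) and the build was mm10 (GRCm38). How LADs were called, and whether a Dam-only signal was subtracted, is not given in the sources used here. Depth is unknown, so no counting interval can be given. The lists lie on a 100-kb grid. From them, Python 3.11.15 with pandas 2.3.3 and NumPy 2.4.6 computed midpoint state, border distance and the LAD percent of the 2.5 Mb on each side of the midpoint, within the span that the LADs of all lists bound on each chromosome. The scripts were tested on simulated data at 500 positions. Genes came from RefSeq GRCm38.p6, leaving out 333 scaffold entries; of the wider list, 2 names matched through older symbols. Named are the 10 genes, their nearest neighbours, genes sharing their differing stretches and varying genes of the wider list. The members and lists were chosen with earlier results of these data known. Coordinates are 1-based. Distances are given with no sign, as inside or outside. Alternatives were another position for the gene, LAD length, bridged gaps, moved borders and other windows.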

Additional observations from a re-analysis of the deposited data

How the results depend on the processing

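No paired analysis was possible because each group has 1 list pooled over its replicates; for the same reason no replicate could be left out. A count or percent was taken to depend on a setting when it moved by over 1.5 times; 12 values of counts and median coverage did and 128 did not. With the 5′ start in place of the midpoint (known for 9 of the 10 genes and 53 of the 61 wider genes), at least 50% of the gene length, any base of the gene, or gaps of up to 200 kb bridged, the state of each of the 10 genes was the same in every list. None of these settings could change it. Each gene body, with its 5′ start, was wholly inside or wholly outside LADs in every list, and Lmnb1, without a start, kept its midpoint. The shortest gap that held one of the genes was 0.3 Mb long. The 128 values thus include values of the 10 genes that could not have moved. With LADs of at least 300 kb, Sun1 left: 1 of the 10 genes was in siControl 8-cell LADs, 0 were LAD in siControl 8-cell and not in siRif1 8-cell, and 0 were LAD in siControl 8-cell and not in siControl 4-cell. LADs shortened by 100 kb at both ends gave the same 3 counts (1, 0 and 0), left 1 gene that was LAD in siControl 4-cell and not in siRif1 4-cell, and 5 of the wider genes in siControl 4-cell LADs. LADs lengthened by 100 kb also left 1 gene LAD in siControl 4-cell and not in siRif1 4-cell, with Lmnb1 in LADs in 4 lists. In a window of 2 Mb the median coverage was 12.5% in siRif1 4-cell, 12.5% in siControl 8-cell and 15.0% in siRif1 8-cell, below that of all genes in each; windows of 10 Mb or measured from the gene ends kept it within 1.5 times. Calls nearer than 1 bin to a border (Lmnb1, Sun1, Sun2) are limited by the grid. The 2 Mb medians of all and of wider genes, and the wider counts by role with moved borders, were added after seeing the data.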

Other observations

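The LAD of Sun2 in siControl 4-cell embryos stood apart from LADs of the other lists more than nearly any other. This count was made after the Sun2 values had been seen. Of the 601 LADs of the siControl 4-cell list, 2 (0.333%) were at least 5 Mb from every LAD of the other 3 lists. One is the Sun2 LAD, 5.8 Mb from the nearest, and the other lies on chromosome 5 (115300001 to 115600000, 0.3 Mb, 10 protein-coding genes). The siRif1 4-cell and siControl 8-cell lists had 0 such LADs of 644 and 746, and the siRif1 8-cell list 1 of 738, on chromosome 4 (155900001 to 156200000, 10 protein-coding genes). The Sun2 LAD held 36 protein-coding genes per Mb and each of the other 2, both 0.3 Mb long, held 33.3. The whole mapped span of 2384.9 Mb held 20144 protein-coding genes. Whether these densities differ from those of other LADs was not tested.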
